A study of Mus musculus with 9 samples.

Results

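Collagens, laminins and the Adamts proteases build and remodel the extracellular matrix, and 80 of the 21951 protein-coding genes in the mouse annotation GENCODE M21 carry a name of one of these families. Membership was set by a pattern of names: those that begin with Col, a number, a and a number, with Lam, a letter a, b or c and a number, or with Adamts. These families were chosen with earlier results of these data known. The pattern also took in Col4a3bp, which encodes a ceramide transfer protein and no matrix component, so 79 genes are true members of the families. A total of 19 genes encode basement-membrane chains (the 6 collagen IV genes, Col15a1, Col18a1 and 11 laminin genes), and the remaining 61, Col4a3bp included, are called other matrix genes here.

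The data are 1 list of 30998 stranded peaks of RNA recovered with SAFB1, an RNA-binding protein of the nucleus, by immunoprecipitation and sequencing (RIP-seq) in embryonic stem cells of a male CAST/B6 Rosa26-RMCE mouse line. All 9 libraries came from cells under doxycycline for 3 days. Of these, 3 used anti-SAFB1 on wild-type cells (the parent line, clone 20 and clone 44) and 2 used it on safb1/2 dko cells, which lack SAFB1 and SAFB2 (clones 4 and 13). Anti-FLAG was used on dko clone 13 with a rescue plasmid for full-length SAFB1 (1 library) or with an eGFP plasmid (1), and IgG on wild-type cells of the parent line and clone 20 (2). The genotype field of the rescue library reads WT while its title names the double-knockout clone, and each clone stands for 1 line. Every peak name begins with wt_saf and a strand, but the list ties no peak to a library, so no antibody or genotype could be compared, no value has replicates, the depth behind a peak is unknown, and no RNA level per gene was measured. Every result below describes positions in this list, and no test across samples was possible. Of 6 pluripotency genes 2 had a peak (33.3%, 95% Wilson interval 9.68 to 70.0). That is beside 26.2% of all protein-coding genes and 18.1% of other protein-coding genes within 20% of their length. Esrrb held 2 peaks and Zfp42 held 1, while Pou5f1, Nanog, Sox2 and Klf4, all short genes, held 0. Having a peak is not a measure of expression.

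The basement membrane is a thin sheet of matrix under epithelia and around some cells. Its networks are made of laminin trimers, each of an alpha, a beta and a gamma chain, and of collagen IV trimers, linked by nidogens and the proteoglycan perlecan. Primitive endoderm, which forms beside the pluripotent cells of the mouse embryo, is a source of the first basement membrane. Other collagens form fibrils, beaded filaments or transmembrane proteins of connective tissue, and Adamts enzymes are secreted metalloproteases that trim procollagens and cut proteoglycans. SAFB proteins are described as binding purine-rich RNA and are found with nascent transcripts.

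SAFB peaks were found in 24 of the 80 genes, and 87 peaks lay in them on the strand of the gene (sense peaks). That is 30.0% of the genes (95% Wilson interval 21.1 to 40.8, which covers counting error only), beside 26.2% of all protein-coding genes. The matrix genes are long, however, with a median of 114 kb, against 17.3 kb in the other protein-coding genes. For each of the 80, the other protein-coding genes within 20% of its length were taken, and on average 52.3% of those had a peak. At that share 41.8 of the 80 genes would have one. Per length, the 80 genes held 0.811 peaks per 100 kb (exact Poisson interval 0.650 to 1.00), against 1.84 (1.82 to 1.87) in the other protein-coding genes. At the density of genes of their own length they would hold 231 peaks.

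The share of genes with a peak lay below that of other protein-coding genes in each length class from 30 kb upward, and above it among shorter genes. Among genes of at least 100 kb, 14 of 44 members had a peak (31.8%), against 1686 of 2448 other protein-coding genes (68.9%). Among genes of at least 200 kb it was 4 of 18 members (22.2%), beside 69.8% of all protein-coding genes of that length. Below 30 kb, 6 of 18 members had a peak (33.3%, interval 16.3 to 56.3), against 13.0% (12.4 to 13.5) of the others. Within this class the others were not matched to the members for length. For single members below 30 kb, the share with a peak among genes of similar length ran from 8.28% (Col10a1, 7.11 kb) to 28.7% (Adamtsl2, 29.6 kb). Those 6 short genes were Adamts1, Adamtsl5, Adamts15, Adamts10, Col2a1 and Col6a2. RNA abundance was not accounted for, so these shares are descriptions relative to length.

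**Figure D1:**
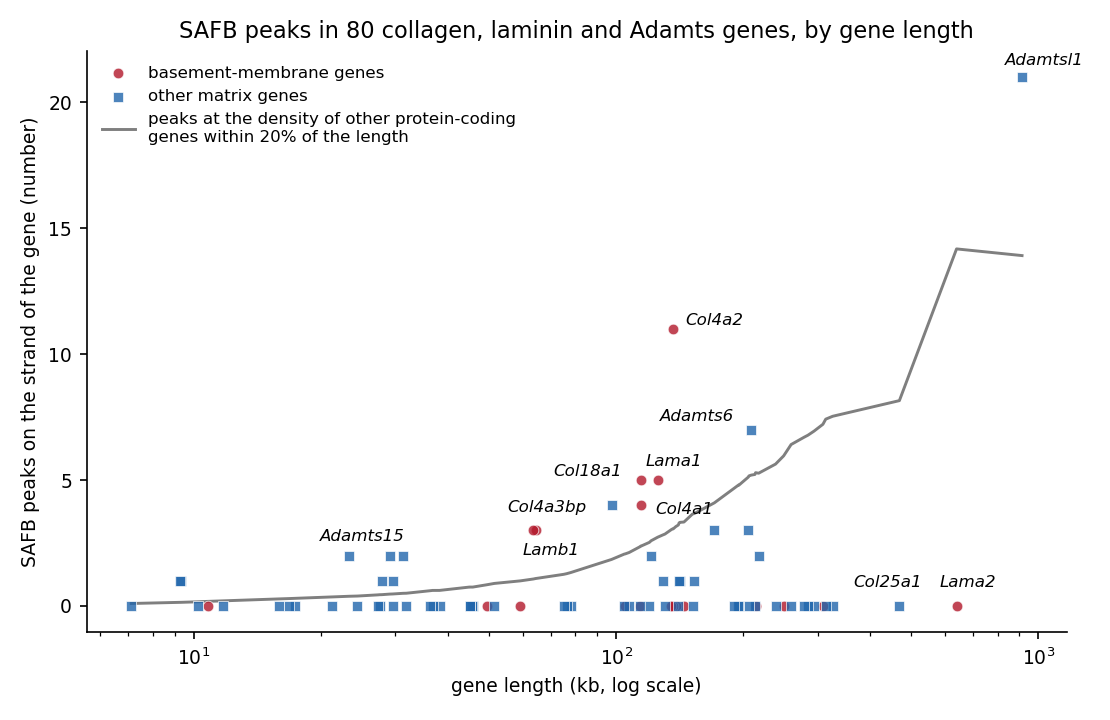
Sense peaks per gene (vertical axis, number) against gene length (kb, log scale) for the 80 genes, Col4a3bp included. Circles are basement-membrane genes, squares other matrix genes, and the line is the number of peaks at the density of other protein-coding genes within 20% of the length. Adamtsl1 (21), Col4a2 (11) and Adamts6 (7) lie above the line, while Lama2 and Col25a1 lie at 0.

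Few genes carried most of the peaks. Adamtsl1 held 21, Col4a2 11, Adamts6 7, and Lama1 and Col18a1 5 each, in all 49 of 87 (56.3%). Col4a1 and Col4a3bp held 4 each, and Adamts2, Adamts9 and Lamb1 3 each. Adamts19, Col27a1, Col7a1, Col2a1 and Adamts15 held 2 each, and Col5a1, Col26a1, Col13a1, Col5a2, Adamts10, Col6a2, Adamtsl5 and Adamts1 held 1 each. At least 2 peaks were found in 16 of the 80 genes (20.0%), beside 13.8% of all protein-coding genes, and on average in 37.7% of genes of similar length.

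Pooled over all lengths, basement-membrane genes held more peaks per length than the other matrix genes, and about the same share of them had a peak. The difference in density was not tested, its direction depended on length, and its size depended on single genes. A peak was found in 6 of 19 basement-membrane genes (31.6%, interval 15.4 to 54.0) and in 18 of 61 other matrix genes (29.5%, 19.6 to 41.9). Genes of similar length had one in 60.6% of cases for the basement-membrane genes and in 49.7% for the other matrix genes. The 6 basement-membrane genes each held at least 3 peaks, while 8 of the 18 other genes held only 1. Over all protein-coding genes, 26.2% had at least 1 peak and 13.8% at least 2. Of those 8 genes, Adamts10, Col6a2, Adamtsl5 and Adamts1 are shorter than 30 kb, and no basement-membrane gene that short had a peak. The pooled density was 1.06 peaks per 100 kb (0.721 to 1.51) in basement-membrane genes and 0.718 (0.542 to 0.932) in other matrix genes, intervals that overlap. From 30 to 100 kb the densities were 2.53 in basement-membrane genes (6 peaks in 4 genes) and 0.817 in other matrix genes (6 in 14). Of the latter 6 peaks, 4 lay in Col4a3bp. From 100 to 200 kb they were 1.98 (25 peaks in 10 genes, 11 of them in Col4a2) and 0.391 (9 in 16). From 200 to 1000 kb the direction turned, with 0 peaks in 4 basement-membrane genes, against 0.745 per 100 kb in 14 other matrix genes, and below 30 kb the 1 basement-membrane gene held 0, against 2.37 per 100 kb in 17 other matrix genes. Both pooled values lean on 1 gene: without Col4a2 the basement-membrane density was 0.718, and without Adamtsl1 that of the other matrix genes was 0.508. Without Col4a3bp, which is no matrix component, that of the other matrix genes was 0.675.

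**Figure D2:**
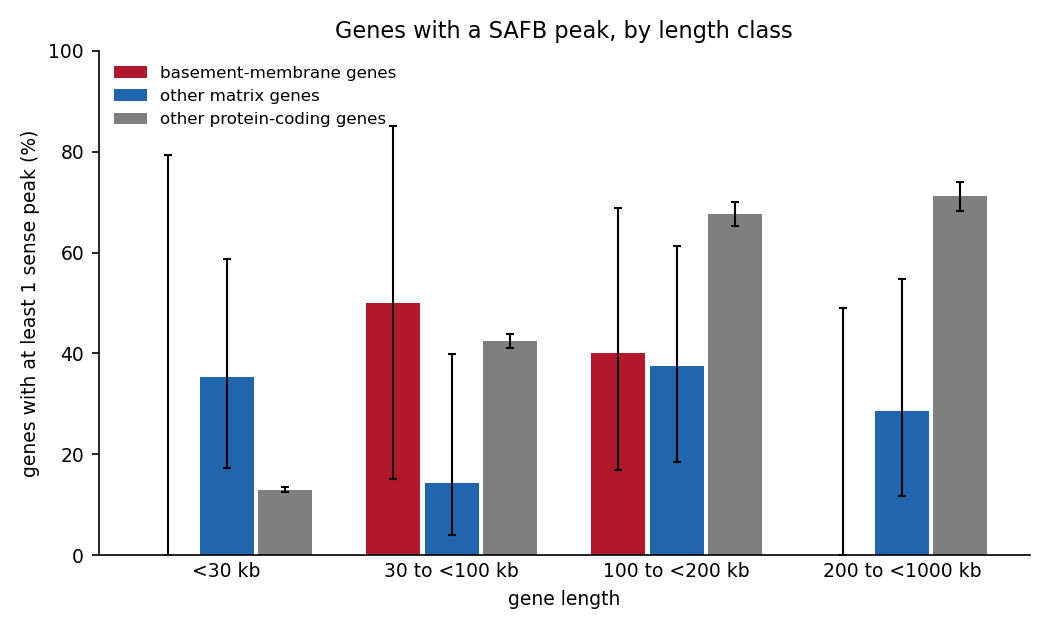
Share of genes with at least 1 sense peak (vertical axis, %) in 4 classes of gene length, for basement-membrane genes, other matrix genes and other protein-coding genes. Error bars are 95% Wilson intervals, which cover counting error only. From 100 to 200 kb the shares are 40.0% (4 of 10), 37.5% (6 of 16) and 67.6% (993 of 1468).

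Collagen IV genes stand in 3 head-to-head pairs, and the peaks lay in 1 pair alone. Collagen IV is the network-forming collagen of basement membranes. Col4a2 and Col4a1 encode the chains of its most widespread trimer, Col4a3, Col4a4 and Col4a5 those of the kidney glomerulus and other specialised membranes, and Col4a6 a chain that joins with Col4a5. Col4a2 (chromosome 8, 11312805 to 11449287, plus strand, mm10) and Col4a1 (11198423 to 11312826, minus strand) overlap by 22 bases at their starts and are transcribed away from each other, with 11 and 4 peaks. The starts of Col4a3 and Col4a4 on chromosome 1 are 71 bases apart, and those of Col4a5 and Col4a6 on chromosome X 1308 bases apart, and these 4 genes held 0 peaks over 273.6 and 523 kb per pair. At the density of genes of their length the Col4a1 and Col4a2 pair would hold 5.44 peaks, the Col4a3 and Col4a4 pair 6.19 and the Col4a5 and Col4a6 pair 12.5.

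**Figure D3:**
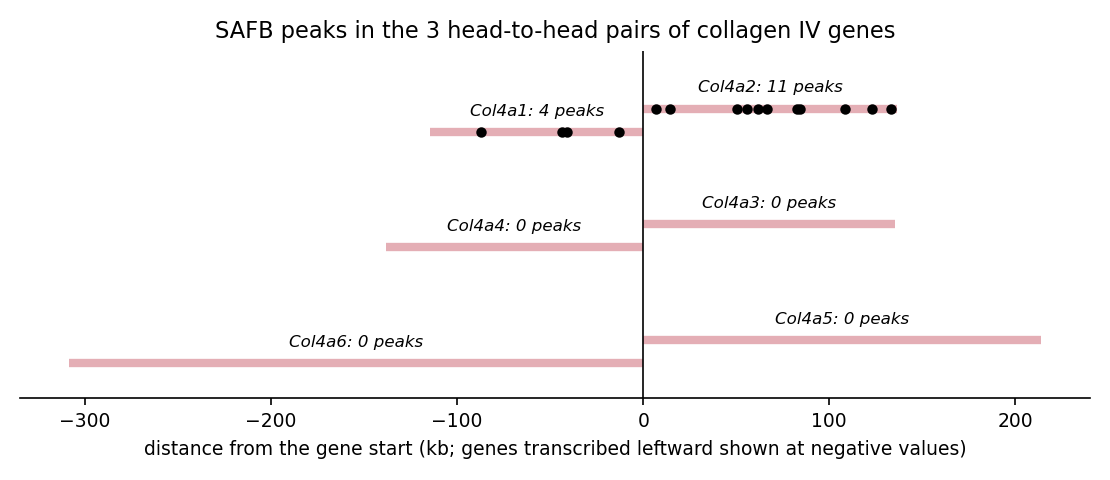
Sense peaks (black points) of the 3 head-to-head pairs of collagen IV genes, by distance from the gene start in kb. Genes transcribed leftward are drawn at negative values. Col4a2 holds 11 peaks, Col4a1 4, and the other 4 genes none.

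Col4a2 had the highest density of the members over 100 kb, and its peaks ran along the whole transcript. It held 8.06 peaks per 100 kb, and peaks covered 4.54% of its length. Their midpoints lay 7.03, 14.3, 50.2, 56.0, 61.8, 66.7, 82.8, 84.4, 108, 123 and 133 kb from the gene start. Intron 4, the longest (44.3 kb, 32.5% of the gene), held 6 of the 11, and intron 3 (40.6 kb, 29.7%) held 2. Among 901 other genes of similar length the median was 2 peaks, and 4.77% had 11 or more. Peak widths ran from 98 to 1404 bases.

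Col4a1, of similar length and transcribed from the same start region, had fewer and narrower peaks. They lay 13.2, 41.2, 43.9 and 87.3 kb from its start, 3 of them in intron 1 (44.9 kb, 39.2% of the gene). Their widths were 420, 133, 285 and 85 bases in that order, so that peaks covered 0.807% of Col4a1, and the last of them was the narrowest peak of all 80 genes. No peak midpoint of either gene lay nearer to its start than 7.03 kb.

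Only 1 of the 15 peaks in the Col4a1 and Col4a2 pair lay in an exon, and its sequence is shown because the whole peak is collagen coding sequence. It covers 121 bases of exon 22 of Col4a2 (chr8:11421170-11421290, plus strand, mm10; the exon runs from 11421168 to 11421322), read from the GENCODE M21 transcripts. Capitals mark the run of at least 8 purines (A or G).
Col4a2 exon 22: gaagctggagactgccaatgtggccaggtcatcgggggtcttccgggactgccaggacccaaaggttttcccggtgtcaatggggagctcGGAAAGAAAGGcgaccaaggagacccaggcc
The stretch is 59.5% purine, against 53.8% in the exonic bases of Col4a2 outside peaks. It holds none of the purine hexamers that a repeat of GAA gives in its 3 frames, which are GAAGAA in the first frame, AAGAAG in the second frame and AGAAGA in the third.

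Col18a1 encodes the chain of collagen XVIII, a basement-membrane collagen whose end fragment is endostatin, and it held 5 peaks (chromosome 10, 77052178 to 77166548, minus strand). They lay 44.1, 46.8, 80.4, 104 and 109.6 kb from the gene start and were 1555, 488, 1767, 2970 and 90 bases wide. The fourth was the widest peak of all 80 genes, and peaks covered 6.01% of Col18a1. The first 2 lay before the start of the transcript with the longest coding sequence (60.8 kb, 3 peaks) and within a longer annotated transcript. A further 3 peaks lay on the opposite strand, in no annotated gene. Col15a1, the related collagen XV gene of 105 kb, held 0.

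Among the laminins, Lama1 and Lamb1 held 5 and 3 peaks. Lama1 (chromosome 17, 67697259 to 67822647, plus strand), an alpha chain of early embryonic basement membranes, held 5, at 16.01, 59.1, 87.9, 100.3 and 119.6 kb from its start. Lamb1 (chromosome 12, 31265234 to 31329644, plus strand), the beta chain found in most laminins, held 3, at 29.8, 39.4 and 45.5 kb. Densities were 3.99 per 100 kb in Lama1 and 4.66 in Lamb1, and peaks covered 4.88% of Lama1 and 3.64% of Lamb1.

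Several laminin genes held no peak. Lamc1, the gamma chain that assembles with Lama1 and Lamb1, is 114 kb long and held 0, and genes of its length had a peak in 64.7% of cases. Lamb3 (136 kb) and Lama3 (249 kb) held 0 as well. Lama2, the alpha chain of muscle and nerve laminin, was the longest member without a peak (639.7 kb), and the median of the 116 other genes of its length was 7.

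Several peaks of Lama1 reached into exons. In that gene all 5 had an intronic midpoint, but 3 of them reached into exons by 171, 365 and 390 bases, and 1 midpoint lay 1 base from an exon. In Lamb1 the second peak was centred on exon 20, which it covered whole with introns on both sides. The 164 coding bases are shown as the exonic part of that peak (chr12:31304590-31304753, plus strand, mm10); no run of 8 purines occurs, so nothing is in capitals.
Lamb1 exon 20: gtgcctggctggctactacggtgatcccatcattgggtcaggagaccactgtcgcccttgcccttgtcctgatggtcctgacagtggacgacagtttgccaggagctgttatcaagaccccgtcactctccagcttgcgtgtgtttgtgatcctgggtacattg
This exon is 43.9% purine, less than the 50.1% of the exonic bases of Lamb1 outside peaks.

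Collagens outside the basement membrane had few peaks for their length. A peak was found in 8 of 36 (22.2%, interval 11.7 to 38.1), beside 26.2% of all protein-coding genes and 49.9% of genes of similar length. These collagens held 11 peaks in all, or 0.268 per 100 kb (0.134 to 0.480). Fibrillar collagens had a peak in 4 of 11 cases (36.4%, interval 15.2 to 64.6), against 47.7% of genes of similar length and 26.2% of all protein-coding genes. These were Col2a1, the main collagen of cartilage, and Col27a1 with 2 peaks each, and Col5a1 and Col5a2, which help to start fibrils, with 1 each. Col1a1, Col1a2 and Col3a1, the abundant collagens of connective tissue, and Col5a3, Col11a1, Col11a2 and Col24a1 held 0. The 9 FACIT collagens, the longest Col19a1 (326 kb), which sit on the surface of fibrils, held 0 peaks over genes with a median length of 75.1 kb, where genes of similar length had a peak in 50.5% of cases. The upper bound of the exact Poisson interval was 0.337 per 100 kb for them.

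Of the other collagens, Col7a1, the anchoring fibril collagen under the epidermis, held 2 peaks in 31.3 kb. Col26a1, the transmembrane collagen gene Col13a1 and the collagen VI gene Col6a2 held 1 each. The collagen VI genes Col6a1, Col6a3, Col6a4, Col6a5 and Col6a6 held 0, as did Col8a1, Col8a2, Col10a1 and Col28a1 and the transmembrane collagen genes Col17a1, Col23a1 (294 kb) and Col25a1 (468 kb). Some peaks were near the gene end. That of Col5a1 lay at 139.6 of 153 kb and that of Col13a1 at 134 of 141 kb, and those of Col27a1 at 108 and 115 of 121 kb.

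Col2a1 was the only collagen with 2 exonic peaks, and both lay in its first 5 kb (chromosome 15, 97975602 to 98004695, minus strand). Their midpoints were 0.830 and 4.43 kb from the gene start, in exons of retained-intron transcripts that are introns 1 and 2 of the main transcript. In Col7a1 the peak midpoints lay 2.75 and 5.76 kb from the gene start, and the peaks overlapped exons by 414 and 225 bases. Exons of Col7a1 are packed closely, 119 in 31.3 kb.

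Adamts and Adamts-like genes had a peak in 9 of 24 cases (37.5%, interval 21.2 to 57.3). That is beside 26.2% of all protein-coding genes and 48.8% of genes of similar length. Among the proteases, Adamts6, which is needed for heart development in mice, held 7 peaks (chromosome 13, 104287835 to 104496695, plus strand), at 30.4, 46.4, 90.7, 97.4, 180.3, 195 and 207 kb from its start. The last of these lay in the 3' untranslated region and the other 6 in introns. Genes of similar length had a median of 3 peaks, and 28.5% of them had 7 or more.

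Adamts9, a protease of versican that is also needed for cilia, held 3 peaks, at 27.4, 42.9 and 47.8 kb of a gene of 171 kb. Adamts2, which removes the amino-terminal propeptide of fibrillar procollagens, held 3 at 24.6, 85.3 and 159.7 kb, each in a different intron. Its relatives Adamts3 (206 kb) and Adamts14 (76.3 kb), which do the same to procollagens, held 0. Adamts19 held 2 peaks in 217 kb. The proteoglycan-cutting enzymes Adamts1 and Adamts15 held 1 and 2, while Adamts4, Adamts5, Adamts8 and Adamts20 held 0. The long genes Adamts12 (284 kb), Adamts16 (114 kb), Adamts17 (313 kb) and Adamts18 (152 kb), and Adamts7 and Adamts13, the protease of von Willebrand factor, held 0, and Adamts10, which is tied to fibrillin microfibrils, held 1.

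Adamts1, Adamtsl5 and Adamts10 carried wide peaks centred on exons. Adamts1 (9.29 kb) and Adamtsl5 (9.30 kb) had the highest coverage of all 80 genes, 15.7% and 14.7%, from 1 peak each of 1455 and 1368 bases. The peak of Adamts1 lay within its last exon, with its midpoint in the 3' untranslated region, and the midpoint of that of Adamtsl5 in an exon of retained-intron transcripts, beyond the end of the main transcript. The peak of Adamts10, 2871 bases wide, had its midpoint in the 3' untranslated region of a short transcript of 3 exons. Genes of the length of Adamts1 had a peak in 11.5% of cases.

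Most peaks of Adamtsl1 lay before the start of its main transcript. Adamtsl1 encodes a secreted protein related to the proteases but without their catalytic domain, and it is annotated over 914 kb (chromosome 4, 85514172 to 86428385, plus strand). Of its 21 peaks 18 lay in the first 453 kb, 3.33 per 100 kb of the 539.7 kb that precede the transcript of 28 exons. That transcript, which has the longest coding sequence, starts at 86053915, spans 374 kb and held 3 peaks, or 0.801 per 100 kb. The upstream part is covered by a transcript of 4 exons over 597 kb, and 4 of the 18 peaks also lay in Sh3gl2, an endocytosis gene of the same strand. No peak lay between 453 and 659 kb from the gene start, a gap of 206 kb. A further 7 peaks on the opposite strand lay in Adamtsl1, in no annotated gene. Among 68 other genes of similar length the median was 3.5 peaks and 14.7% had 21 or more. The Adamts-like genes Adamtsl2, Adamtsl3 (279 kb) and Adamtsl4 held 0. An alternative added once the data had been seen took each gene as the span of its transcript with the longest coding sequence. The members then held 66 peaks in 23 genes (28.75%). Under the same setting 24.8% of protein-coding genes had a peak, and on average 52.0% of genes of similar length.

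**Figure D4:**
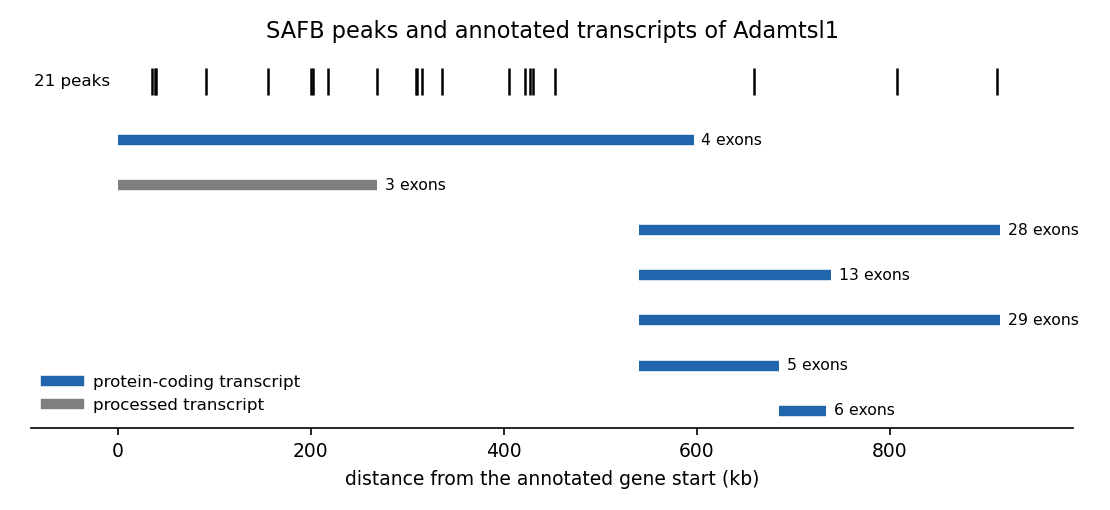
Peaks of Adamtsl1 (vertical ticks) and its annotated protein-coding and longer processed transcripts (bars, with their number of exons), by distance from the annotated gene start in kb. The 18 leftmost peaks lie before the start of the transcripts of 28 and 29 exons, and 3 lie within them.

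Of the 18 upstream peaks 1 was exonic, in the last exon of a non-coding transcript of 3 exons. The 200 bases around its midpoint are shown as the exonic sequence of that upstream part (chr4:85782286-85782485, plus strand, mm10), with runs of at least 8 purines in capitals.
Adamtsl1 upstream exon: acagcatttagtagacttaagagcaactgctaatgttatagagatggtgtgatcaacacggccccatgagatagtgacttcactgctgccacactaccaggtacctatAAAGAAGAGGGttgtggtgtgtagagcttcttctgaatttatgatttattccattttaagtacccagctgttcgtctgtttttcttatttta
The run of 11 purines holds 2 overlapping purine hexamers, AAGAAG and AGAAGA, and the whole stretch is 47.5% purine.

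Peaks were mainly intronic, as in other genes. Exons held 10 of the 87 midpoints (11.5%, interval 6.36 to 19.9), beside 14.6% of all protein-coding sense peaks, while exons make up 6.11% of the length of the 80 genes and 9.09% of that of other protein-coding genes. Of the 10, 3 lay in coding sequence (Col4a2, Col7a1, Lamb1), 3 in 3' untranslated regions (Adamts1, Adamts6, Adamts10) and 4 in exons of non-coding transcripts (Col2a1 with 2, Adamtsl1, Adamtsl5). The 77 intronic midpoints lay a median of 3.42 kb from the nearest exon of their gene, against 5.50 kb in other protein-coding genes. Of the 77, 21 (27.3%) lay within 1 kb of an exon, against 17.2%, and 29 (37.7%) beyond 10 kb, against 36.8%. Without Adamtsl1 that median was 2.19 kb, with 19 of 57 (33.3%) within 1 kb of an exon and 11 (19.3%) beyond 10 kb. In basement-membrane genes the median was 1.69 kb (29 peaks). Adamtsl1 itself had 18 of its 20 intronic peaks more than 10 kb from an exon. The number of exons and the length of introns, which differ between genes, were not accounted for in these distances.

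**Figure D5:**
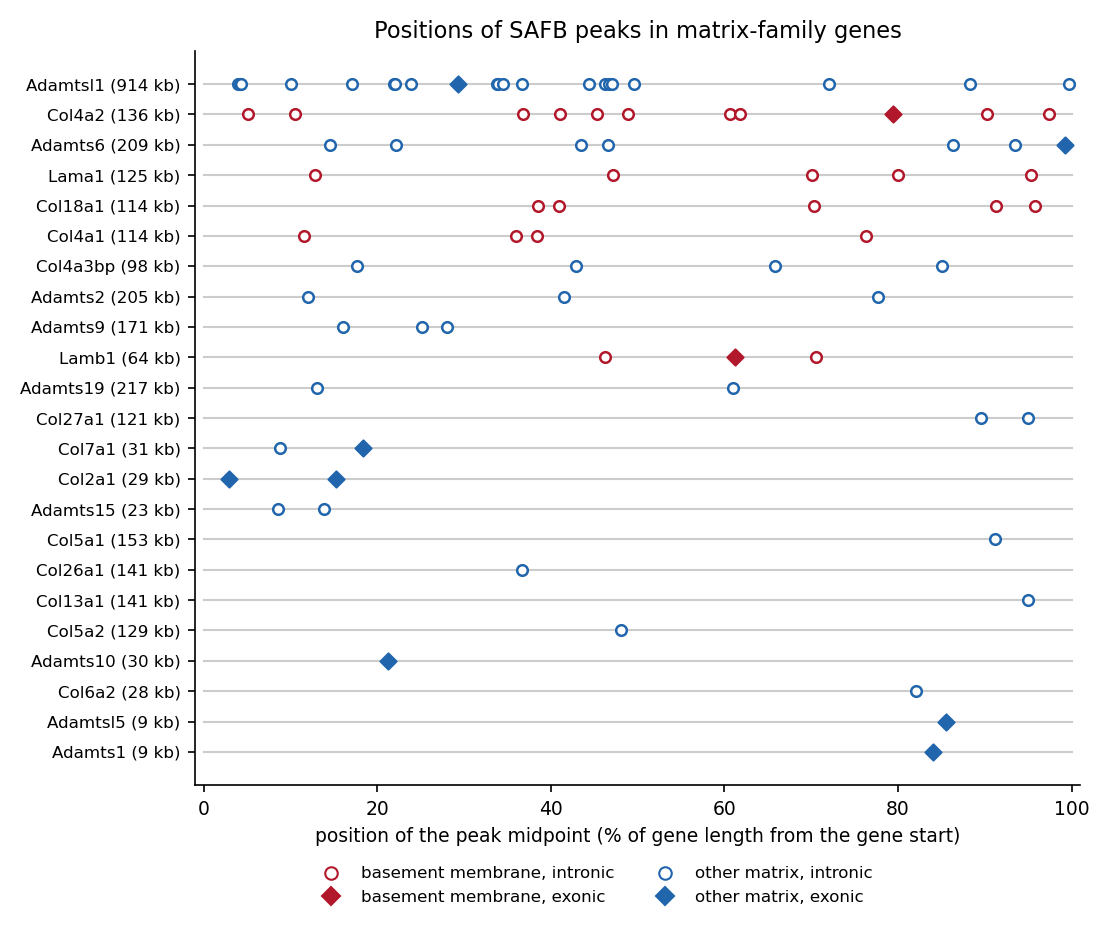
Positions of peaks along the genes named above, as the midpoint in percent of the gene length from its start, with genes ordered by number of peaks. Open circles are intronic and diamonds exonic midpoints. Peaks of Col4a2 and Lama1 run along the gene, while 18 of 21 in Adamtsl1 lie in its first 50%.

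Along the gene, 54 of 87 peaks (62.1%) lay in the first 50% of the gene, against 47.1% in other protein-coding genes, and without Adamtsl1 it was 36 of 66 (54.5%). The last 10% of the gene held 11 of 87 (12.6%), against 10.9%. Peaks had a median width of 602 bases (quartiles 270.0 and 993), against 667 (316 and 1201) in other protein-coding genes. In basement-membrane genes the median width was 523 bases, and in other matrix genes 634. Neighbouring peaks of a gene were a median of 16.1 kb apart, against 7.50 kb in other protein-coding genes with at least 2 peaks.

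Exonic peaks of these genes were little richer in purines than the rest of their exons. Over the 10 exonic peaks, A and G made up a mean of 51.5% of the exonic bases, against 50.6% in the exonic bases outside peaks of the same genes, a mean difference of 0.840 percentage points with 7 of 10 peaks above. Over the 2874 exonic peaks of other protein-coding genes the mean difference was 4.05, with 76.4% of peaks above. The largest differences were those of Col4a2 (5.66), Adamts10 (4.71) and Adamts1 (4.52), and the lowest that of Lamb1, which was -6.24. The 3 hexamers of the GAA repeat, searched on the RNA strand only with overlaps counted, occurred 30 times in 6 of the 10 peaks, or 3.57 per kb, against 4.60 per kb in the exonic peaks of other genes, of which 71.7% held one. Adamts1 held 11 of the 30 in its peak. With 10 peaks these values describe single places, and intronic peaks were not read.

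On the opposite strand, 23 peaks lay in 8 of the 80 genes, and 4 of these genes had no sense peak. That is 10.0% of the genes (Wilson interval 5.155 to 18.5), beside 12.5% of all protein-coding genes, and on average 20.6% of genes of similar length held an opposite-strand peak. Adamts8 held 6, of which 5 lay in Gm29724, a long non-coding gene annotated antisense to it, upstream of Adamts15 on the same strand. Adamts9 held 2, both in A730049H05Rik. Col14a1 held 2, and Col9a2, Col4a2 and Lama3 1 each, in no gene of that strand. In Adamts15, next to Adamts8, both sense peaks lay 2.00 and 3.23 kb from the gene start.

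For each of 4 further lists of matrix-related genes, the share of similar-length genes with a peak lay within the Wilson interval of the list. The lists hold 7 to 23 genes, so these intervals are wide and do not show that the shares are alike. Over all protein-coding genes, 26.2% had a peak. Linkers and further components of basement membranes had a peak in 9 of 19 cases (47.4%, interval 27.3 to 68.3), against 54.6% of genes of similar length, led by Fras1 (9), Hmcn1 (8), Frem2 (5) and Pxdn (3). Receptors of laminin and collagen had 5 of 13 (38.5%, 17.7 to 64.5), against 43.6%, with 4 peaks in the laminin-binding integrin Itga6, 2 in Bcam and 1 each in Ddr1, Itga1 and Itgb1. Genes of collagen processing had 5 of 23 (21.7%, 9.66 to 41.9), against 34.4%, with 7 peaks in Pcolce2, an enhancer of procollagen trimming, or 11.6 per 100 kb, and 1 each in Bmp1, Colgalt2, P3h2 and Tll1. Substrates of Adamts enzymes had 2 of 7 (28.6%, 8.22 to 64.1), against 41.8%, with Acan and Reln at 1 each.

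Markers of the cells that make such matrices were looked at beside these counts and the 26.2% of all protein-coding genes with a peak. Primitive endoderm genes had a peak in 3 of 7 cases (42.9%, interval 15.8 to 75.0), against 30.0% of genes of similar length, with Dab2 at 3 and Gata4 and Sox7 at 1 each, while Gata6, Sox17, Pdgfra and Foxa2 held 0. Fibroblast genes also had 3 of 7, against 26.65% of genes of similar length, with Fbn1 and Pdgfrb at 2 each and Twist1 at 1, while Thy1, Postn, Dcn and Lum held 0. Peaks do not measure how many such cells or how much of their RNA was present, and the part of either in the peaks of matrix genes was not tested.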

How the data were processed

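RNA-seq libraries of SAFB1, FLAG and IgG immunoprecipitates were made, per the labels' protocols, after removal of ribosomal RNA and with ERCC spike-ins. The authors deposited 1 peak list for the series, with 6 columns and no header. Its score, as deposited, is 500 in every peak and was not used. The submitters' processing notes name mm10, STAR, Subread and featureCounts. How peaks were called, pooled or filtered is not given in the sources used here. Starts were read as counted from 0, which no source states (at most 1 base).

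Peaks were given to every GENCODE M21 gene (GRCm38, the assembly of mm10) whose span on the same strand held the midpoint, in Python 3.11.15 with pandas 2.3.3 and scipy 1.17.1. Exons are those of all transcripts. The reference transcript of a gene is its protein-coding transcript with the longest coding sequence. Assignment was checked on simulated peaks. Wilson and Poisson intervals are at 95% and cover only the error of counting. 1 member with peaks is counted in the totals but not reported here. Named are the other members with a peak and the 8 longest without one, and of other lists up to 4 genes with most peaks, their ties and the marker genes. Further members without a peak were named after their values were seen. The genes, lists and comparisons were chosen with earlier results of these data known.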

Additional observations from a re-analysis of the deposited data

How the results depend on the processing

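No paired analysis was possible because the list holds no values per library. Of 65 values recomputed under 17 alternatives, 54 stayed within their counting interval or within 1.5 times of the reported count. The difference between the share of members with a peak and that of genes of similar length was -22.3 percentage points as reported, stayed negative under every alternative run, and was -37.5 in genes of at least 100 kb, a setting chosen after seeing the data. Other matrix genes with a peak numbered 10 with at least 2 peaks required. With peaks narrower than the median width left out, which lowers counts by construction, 44 peaks remained, at 0.410 per 100 kb in all members, 0.445 in basement-membrane and 0.397 in other matrix genes. Without the gene with most peaks of each group, densities were 0.718 in basement-membrane and 0.508 in other matrix genes. With Col7a1 and Col17a1 counted as basement membrane, 7 of 21 such genes had a peak, beside 26.2% of all protein-coding genes. Densities were then 1.10 in basement-membrane and 0.699 in other matrix genes. With reference transcript spans, a setting added after seeing the data, other matrix genes had 0.520 per 100 kb. The purine difference was 2.64 percentage points against windows beside the peak and reversed to -0.129 in the 3 peaks of coding sequence, and the cause was not tested. The exonic share ran from 6.90% with exons of protein-coding transcripts to 19.5% with any overlap. Depth is unknown, so a gene without a peak is not shown to lack SAFB1 association.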

Other observations

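Peak names carry numbers that rise with position on each strand of a chromosome, with gaps. The number of peaks in a gene was taken as a share of the numbers from its first to its last peak. In the 16 members with at least 2 peaks the median share was 25.2%, against 28.6% in 3014 other protein-coding genes. It was 8.62% in Lama1 (5 of 58 numbers), 16.2% in Adamtsl1, 20.0% in Col4a2 and 30.4% in Adamts6. In Col27a1 and Adamts15 the 2 peaks had neighbouring numbers.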
